A study of Mus musculus with 7 samples.

Results

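Forkhead (Fox) genes encode transcription factors that share a winged-helix DNA-binding domain and are named by a subfamily letter and a number. They were taken here as every gene named Fox with a letter and a number to which the platform annotation assigns a probe set of its own, which gave 37 genes, with 82 probe sets, of 18193 genes measured by 34945 such probe sets. The rule reads gene names only. Levels were read on 7 single-channel Affymetrix mouse arrays: 2 of basal cell carcinoma dissected from mice, 2 of epidermis of normal newborn (P0) mice, and 1 each of the carcinoma line PDKC1 at 0 h, 6 h and 10 h of cyclopamine. Cyclopamine inhibits Smoothened, the membrane protein through which Hedgehog ligands act. The labels give no strain, genotype or transgene for the tumours and no dose or vehicle for cyclopamine, and PDKC1 is 1 line. They do not say whether the arrays of a tissue hold different mice. The p-values therefore cover only the scatter of these arrays, which may be technical. All epidermis was newborn, so tumour and age cannot be told apart in the tissue comparison.

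In skin, forkhead factors are known from several compartments. Foxn1, the gene mutated in nude mice, promotes keratinocyte differentiation and hair shaft formation, Foxq1 acts in the hair medulla, and Foxc1 and Foxp1 act in keeping hair follicle stem cells quiescent. FOXO factors are held out of the nucleus by AKT and activate genes of cell cycle arrest and metabolism, while Foxm1 activates genes of mitosis. Foxf1 and Foxl1 respond to Hedgehog in gut mesenchyme, and basal cell carcinoma is driven by Hedgehog signalling.

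Values are signal intensities, and levels of different probe sets are not set against each other. Array medians were 118 and 128 on the tumour arrays, 71.2 and 75.5 on the epidermis arrays and 72.4 to 78.3 in PDKC1. The 3′ to 5′ ratio of the Actb control probe sets was 11.3 and 93.1 for the tumours, 3.98 and 2.84 for epidermis and 1.15 to 1.21 for PDKC1. In the tumours 10 of 11 fibroblast markers, 5 of 12 skeletal muscle markers and 3 of 12 endothelial markers were called higher than in epidermis, against 16.6% of all genes. Fibroblast markers summed to 84885 and 107993 in the tumours, 21080.1 and 20014 in epidermis and 782 to 917 in PDKC1. In bulk tissue, fewer cells of a type and less RNA per cell cannot be told apart. Of 11 keratinocyte markers, 11 were over the array median on each tumour array, 11 on each epidermis array and 9 in PDKC1 at 0 h, where Krt1 was at 28.3 and the cadherin gene Cdh1 at 59.4.

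The windows upstream of Foxc1, Foxp1 and Foxn1 are shown because the results turn on these genes: the first 2 were called higher in the tumours in every fit that was run, and Foxn1 had the larger of the 2 called falls. They are the 250 bases before each start in the RefSeq promoter table (GRCm38.p6), which held 29 starts of 24 of the 37 forkhead genes and 3 starts of Foxp1. The Foxc1 window is chr13:31806396-31806645 on the plus strand. On the minus strand are the Foxp1 windows chr6:99028299-99028548 (a), chr6:99266516-99266765 (b) and chr6:99520994-99521243 (c) and the Foxn1 window chr11:78386609-78386858. Each is written 5′ to 3′ along its gene, and capitals mark the GC box GGGCGG and the CCAAT box on either strand.
Foxc1: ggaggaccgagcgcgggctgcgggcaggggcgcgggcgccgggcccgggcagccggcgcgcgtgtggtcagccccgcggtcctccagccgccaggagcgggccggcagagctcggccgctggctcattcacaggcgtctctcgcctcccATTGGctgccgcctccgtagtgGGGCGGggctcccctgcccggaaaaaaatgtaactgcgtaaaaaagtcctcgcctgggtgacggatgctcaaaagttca
Foxp1 (a): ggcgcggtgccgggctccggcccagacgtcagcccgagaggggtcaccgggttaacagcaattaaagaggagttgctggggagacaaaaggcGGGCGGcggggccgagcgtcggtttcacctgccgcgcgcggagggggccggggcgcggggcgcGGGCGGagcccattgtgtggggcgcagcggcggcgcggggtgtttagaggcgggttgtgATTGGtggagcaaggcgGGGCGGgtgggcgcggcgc
Foxp1 (b): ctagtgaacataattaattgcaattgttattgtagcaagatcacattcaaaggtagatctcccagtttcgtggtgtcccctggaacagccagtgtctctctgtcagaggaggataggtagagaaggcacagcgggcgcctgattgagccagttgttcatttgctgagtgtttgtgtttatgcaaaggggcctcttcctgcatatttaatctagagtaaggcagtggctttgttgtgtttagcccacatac
Foxp1 (c): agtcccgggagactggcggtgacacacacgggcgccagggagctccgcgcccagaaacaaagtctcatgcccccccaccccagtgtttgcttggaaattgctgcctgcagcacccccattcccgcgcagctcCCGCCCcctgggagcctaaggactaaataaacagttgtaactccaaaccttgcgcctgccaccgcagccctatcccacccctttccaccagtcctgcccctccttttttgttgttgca
Foxn1: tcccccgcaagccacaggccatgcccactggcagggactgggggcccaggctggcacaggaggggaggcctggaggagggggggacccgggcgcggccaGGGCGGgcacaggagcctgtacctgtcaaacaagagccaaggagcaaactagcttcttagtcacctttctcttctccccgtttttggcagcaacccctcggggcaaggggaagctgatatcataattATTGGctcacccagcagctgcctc

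GGGCGG was found in 20 of the 29 forkhead windows (69.0%), against 32.7% of all 32851 windows of the table. CCAAT was found in 13 (44.8%), against 33.85%. The forkhead core TGTTTAC was found in 1 window, that of Foxa1, against 3.17% of all windows, and the GLI core GACCACCC in 0, against 0.703%. Both strands were read, and none of these motifs contains another. The Foxp1 windows held 74%, 45.2% and 60.8% G and C for (a), (b) and (c), and the median was 62.8% over forkhead windows, against 52.4% over all. A match is a run of letters and not a bound site.

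Between the tissues, Foxc1, Foxp1, Foxd1, Foxo1, Foxn2, Foxj3 and Foxk2 were higher in the tumours, and Foxn1 and Foxn3 were lower. The comparison sets the carcinoma beside the normal epithelium of the skin. A gene was represented by its brightest probe set over all 7 arrays, PDKC1 included. Calls were made at an adjusted p under 0.05 (limma, Benjamini-Hochberg over 18193 genes, 2 arrays per tissue). So 7 of 37 forkhead genes (18.9%) were called higher, against 16.6% of all genes, and 2 (5.41%) lower, against 12.5%. The share called higher is near the background and is no result about the family. Both tumours lay above both epidermis arrays for 14 genes and below for 6, against 35.8% and 29.8% of all genes, and 17 overlapped. The median log2 difference, tumour minus epidermis, was 0.23 for forkhead genes and 0.09 for all genes, but the forkhead median turned to -0.25 with quantile normalization and -0.41 with arrays centred on their medians. The median of all genes was then -0.19 and -0.55. The shares of all genes called higher and lower became 11.9% and 14.9% with quantile normalization, and 8.04% and 25.9% with centring.

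**Figure D1:**
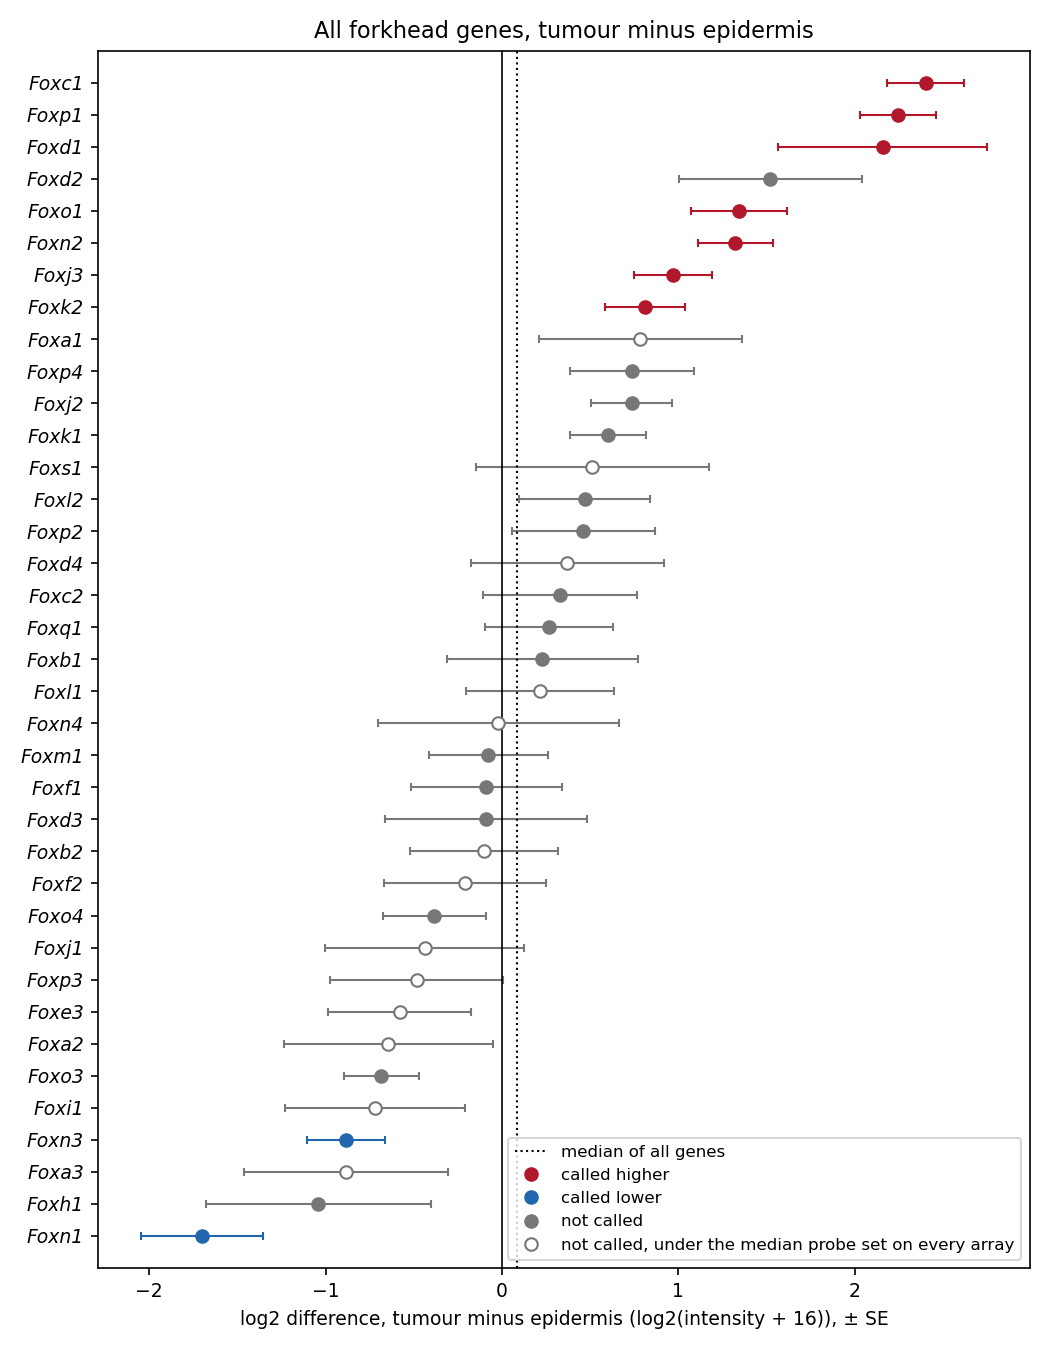
Log2 difference, tumour minus epidermis, of log2(intensity + 16) for the 37 forkhead genes (points, ± SE from limma, 2 arrays per tissue). The called genes run from -1.70 (Foxn1) to 2.40 (Foxc1); the median of all genes, 0.09 here, was -0.19 with quantile normalization and -0.55 with centred arrays.

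Many forkhead genes gave little signal. The chosen probe set was over the array's median on at least 1 array for 24 genes and on all 7 for 13. The 13 genes over it on no array reached at most 64.9 on any array. They were the endoderm factors Foxa1, Foxa2 and Foxa3, Foxb2, Foxd4, the lens gene Foxe3, the gut mesenchyme genes Foxf2 and Foxl1, the inner ear and kidney gene Foxi1, the motile cilia regulator Foxj1, the retinal gene Foxn4, the regulatory T cell gene Foxp3 and Foxs1. None of them was called by limma, with adjusted p-values from 0.310 to 0.986, and 0 had an unadjusted p under 0.05.

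Foxc1 was higher in the tumours by both of its probe sets. The brighter gave 2246 and 2548 in the tumours, against 449 and 432 in epidermis, and the groups did not overlap. Its log2 difference was 2.40 ± 0.22 (SE; limma adjusted p = 0.000907). The second Foxc1 probe set gave 1816 and 1677 in the tumours, against 219.5 and 270.3 in epidermis, a difference of 2.76 ± 0.25 in the limma fit over all single-gene probe sets (adjusted p = 0.000878). Neither probe set overlapped between the tissues. In PDKC1 the brighter one gave 729.7 at 0 h, 782 at 6 h and 922 at 10 h, above both epidermis arrays and below both tumours. The 11 fibroblast markers ran from 6.9 (Pdgfra) to 268 (Col1a2) in PDKC1 at 0 h, with 3 over the array median. Foxc1 is also a gene of mesenchyme, and the part of fibroblasts in the tumour difference was not tested.

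Foxp1 had 8 probe sets, the most of any forkhead gene, and all 8 put both tumours above both epidermis arrays. The brightest gave 6416 and 4978 in the tumours, against 1152 and 1207 in epidermis, a difference of 2.25 ± 0.22 (limma adjusted p = 0.00106). In the fit over probe sets 5 were called higher. The 3 that were not had differences of 0.49 (adjusted p = 0.455), 0.98 (0.0712) and 1.38 (0.191). So the direction was shared by all of them and the size was not. The probe set with the largest difference gave 1562 and 2131 in the tumours, against 13.5 and 53.8 in epidermis, and 41.5 at 0 h, 94.1 at 6 h and 68.3 at 10 h in PDKC1. Its difference of 5.34 ± 0.46 (adjusted p = 0.000845) was 5.85 with a pseudocount of 4 and 4.31 with 64, since epidermis array 1 lay under the pseudocount of 16. PDKC1 was near epidermis for this probe set. For the brightest one, PDKC1 gave 3451 at 0 h, 3269 at 6 h and 2726 at 10 h, between the tissues. One more, designed on the same sequence record as the brightest, gave 1408 and 1040.4 in the tumours, against 394 and 536 in epidermis and 2044 to 2215 in PDKC1, above both tissues. Which transcripts each probe set detects was not tested.

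Foxd1, a gene of kidney stroma and dermal fibroblasts, was called higher at a low level. It gave 80.5 and 223 in the tumours, against 27.8 and 10.4 in epidermis, and tumour 1 lay under its array's median. The difference was 2.16 ± 0.59 (limma adjusted p = 0.0351), and the call was lost without tumour 2 (adjusted p = 0.106). The part of fibroblasts in it was not tested. Its relative Foxd2 gave 175 and 296 in the tumours, against 108 and 42.7 in epidermis, without overlap, and was not called (1.52 ± 0.52, adjusted p = 0.0688 by limma). Foxd3, a neural crest factor, gave 40.8 and 65.8 in the tumours and 96.7 and 30.8 in epidermis, with overlap. The Hedgehog-responsive Foxf1 also overlapped, at 66.4 and 80.3 in the tumours and 83 and 74.6 in epidermis (-0.09 ± 0.43, adjusted p = 0.906 by limma). Foxc2, a gene of lymphatic vessels and mesenchyme, was dim in both tissues, at 12.8 and 25.3 in the tumours and 11.3 and 11.7 in epidermis (adjusted p = 0.637 by limma). Of 12 Hedgehog pathway genes, 9 were called higher and 1 lower, against 16.6% and 12.5% of all genes (list median 1.54, all genes 0.09), with log2 differences of 6.89 for the ligand trap Hhip, 3.41 for the co-receptor Boc, 3.04 for the effector Gli1 and -4.02 for the ligand Shh.

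**Figure D2:**
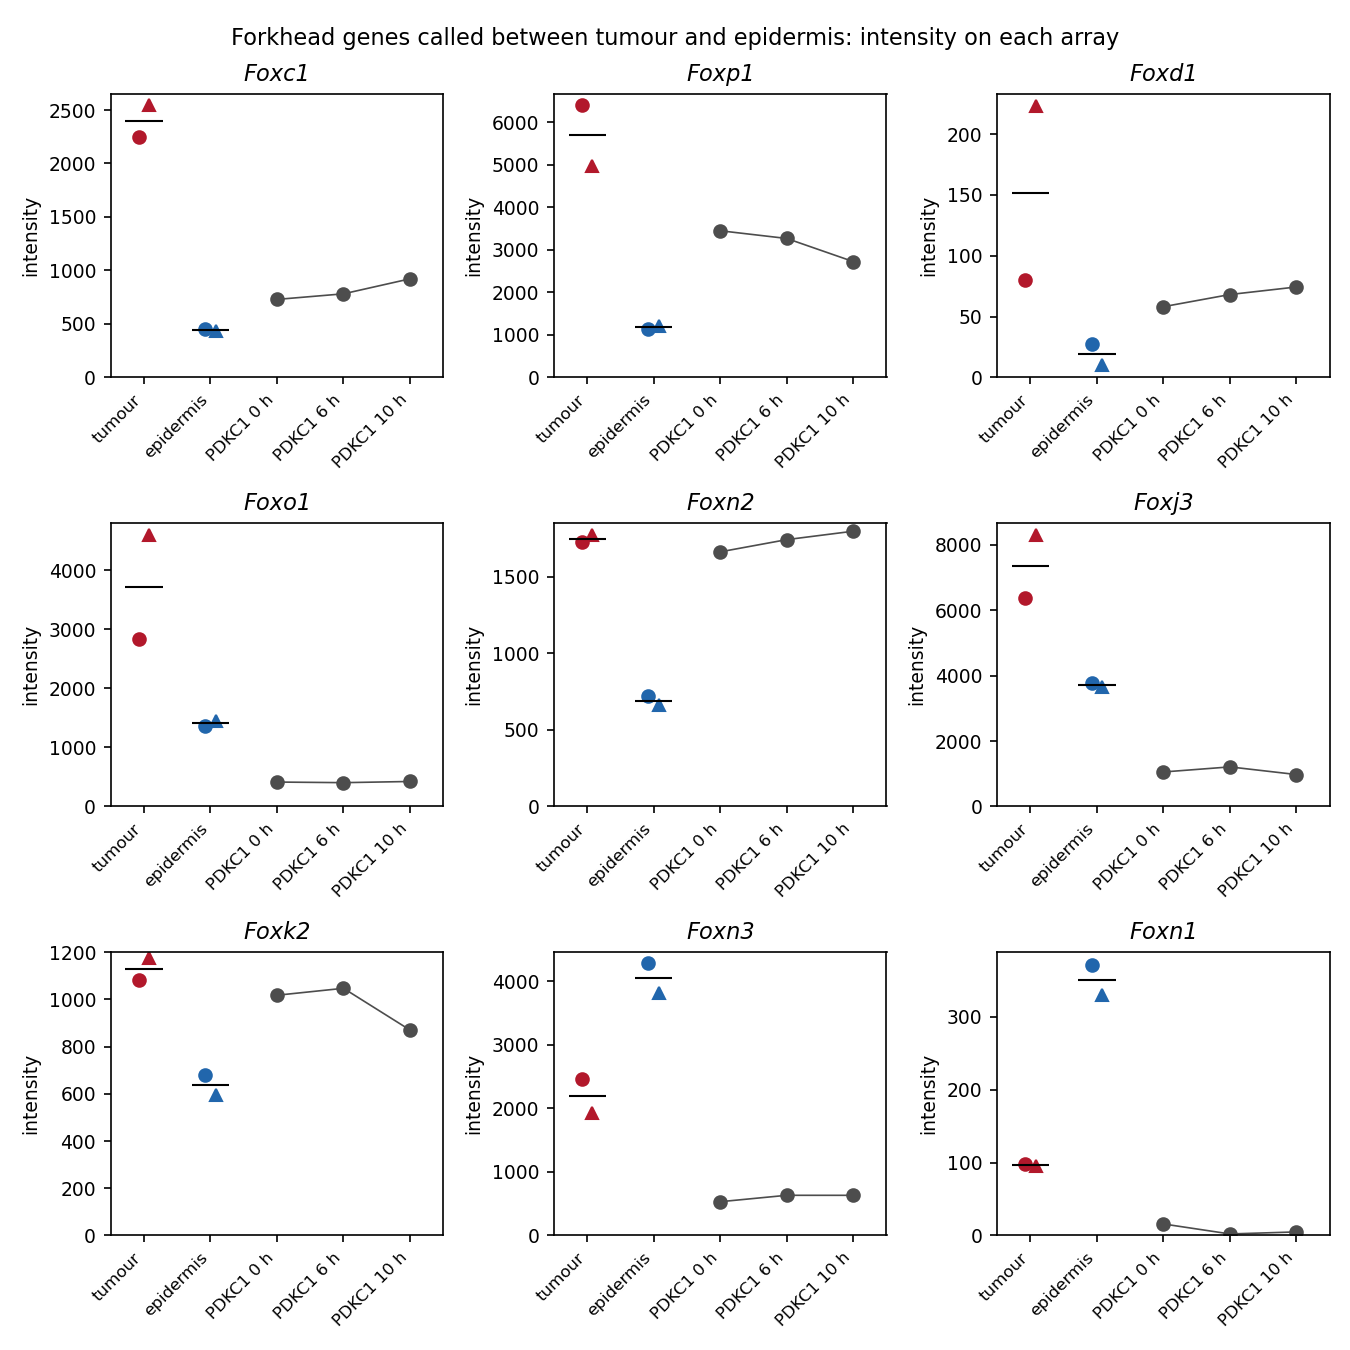
Intensity on each array (linear axes from 0) of the 9 forkhead genes called between the tissues: tumour and epidermis (circle, array 1; triangle, array 2; line, mean of 2) and PDKC1 at 0 h, 6 h and 10 h of cyclopamine (1 array each). Each gene is shown by its brightest probe set, and other probe sets place PDKC1 differently for some genes. PDKC1 lies between the tissues for Foxc1, Foxp1, Foxk2 and Foxd1, near the tumours for Foxn2, and below both for Foxo1, Foxj3, Foxn1 and Foxn3.

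In the N subfamily, Foxn1 and Foxn3 were lower and Foxn2 was higher. Foxn1 gave 97.8 and 95.7 in the tumours, against 371 and 331 in epidermis, so both tumours lay below their array medians and both epidermis arrays above theirs. The difference was -1.70 ± 0.35 (limma adjusted p = 0.0123). In PDKC1 it gave 15.8 at 0 h, 2.1 at 6 h and 4.9 at 10 h. The second Foxn1 probe set varied within each tissue, at 57.3 and 2.7 in the tumours and 19.6 and 147 in epidermis, and was not called (-1.04 ± 0.91, adjusted p = 0.457). In PDKC1 that probe set gave 46.4 at 0 h, 76.9 at 6 h and 59.5 at 10 h, within the range of its tissue values. With the mean of both, Foxn1 was not called (limma adjusted p = 0.102).

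A list of 15 hair shaft genes linked to Foxn1, Foxq1 and Hoxc13, with Hoxc13 itself among them, had a median of -0.47. Of these genes 2 were called higher and 2 lower. These shares are near those of all genes, 16.6% and 12.5%, and are no result about the list. The hair keratin genes Krt35 (-3.07 ± 0.89, adjusted p = 0.0414 by limma) and Krt33a (-2.31 ± 0.48, adjusted p = 0.0133) fell. The desmosomal cadherin gene Dsc2 (1.77 ± 0.29, adjusted p = 0.00536 by limma) and Hoxc13 (1.32 ± 0.34, adjusted p = 0.0283), a regulator of hair keratins, rose. Krt35 gave 55.6 and 579 in the tumours, against 1314 and 2258 in epidermis, without overlap but with the tumours far apart. Krt1, a keratin of differentiating epidermis, gave 6580.1 and 7802 in the tumours, against 39199 and 40934 in epidermis (-2.48 ± 0.23, adjusted p = 0.000947 by limma).

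Foxn3, a checkpoint suppressor, gave 2465 and 1933 in the tumours, against 4284 and 3814 in epidermis (-0.88 ± 0.22, adjusted p = 0.0245 by limma). All 4 of its probe sets had negative differences, from -0.88 to -0.22, and 1 was called. PDKC1 lay below every tissue array, at 532 at 0 h, 633 at 6 h and 632 at 10 h. Its relative Foxn2 gave 1729 and 1771 in the tumours, against 721 and 659.8 in epidermis (1.32 ± 0.21, adjusted p = 0.00512 by limma), with PDKC1 near the tumours at 1663 at 0 h, 1743 at 6 h and 1798 at 10 h. The second Foxn2 probe set rose too, with 242 and 538 in the tumours, against 20.5 and 5.5 in epidermis (3.76 ± 0.56, adjusted p = 0.00392), a difference that was 4.58 with a pseudocount of 4 and 2.49 with 64. PDKC1 gave only 24.9, 3.9 and 21.8 there. The 2 probe sets placed the tumours above epidermis alike and PDKC1 differently.

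FOXO genes differed in direction. Foxo1, by its brightest probe set, gave 2832 and 4599 in the tumours, against 1371 and 1454 in epidermis, and 404 to 423 in PDKC1. That was a rise of 1.34 ± 0.27 (limma adjusted p = 0.0118). Its suffix, s, marks probes that may match several transcripts. Another probe set of the same sequence record gave 809 and 622 in the tumours and 566 and 708 in epidermis (0.16 ± 0.26, adjusted p = 0.711), and a further one 490.5 and 643 in the tumours and 688 and 554 in epidermis (-0.13 ± 0.27, adjusted p = 0.771). Both overlapped between the tissues, and with the mean of its probe sets Foxo1 was not called (0.35, limma adjusted p = 0.296). The rise therefore rests on 1 of the 3 probe sets that were over the median in a tissue. Foxo3 gave 1529 and 1316 in the tumours, against 2476 and 2115 in epidermis, without overlap but not called (-0.68 ± 0.21, adjusted p = 0.0531 by limma), and was called lower with centred arrays (-1.32, adjusted p = 0.00694). Foxo4 gave 385 and 421 in the tumours, against 445 and 632 in epidermis and was not called either (-0.38 ± 0.29, adjusted p = 0.383 by limma), but was with centring (-1.02, adjusted p = 0.0343).

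Of 18 genes that FOXO factors activate, 8 were called higher and 1 lower in the tumours, against 16.6% and 12.5% of all genes (list median 0.85, all genes 0.09). Pik3ip1, an inhibitor of PI3 kinase, rose most (3.85 ± 0.26, adjusted p = 0.000463 by limma), at 3589 and 2688 in the tumours, against 181 and 222 in epidermis. The cell death gene Bcl2l11 (2.03 ± 0.41, adjusted p = 0.0120 by limma) and the CDK inhibitor gene Cdkn1b (1.54 ± 0.26, adjusted p = 0.00631) rose as well. Klf2, a factor of endothelium and T cells, fell (-1.92 ± 0.46, adjusted p = 0.0226 by limma). Of 10 FOXO regulators 1 rose and 1 fell, no more than the share of all genes, the kinase genes Sgk1 (0.81 ± 0.21, adjusted p = 0.0270 by limma) and Akt2 (-1.15 ± 0.29, adjusted p = 0.0270), whose products phosphorylate FOXO proteins.

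Foxj2, Foxj3, Foxk1 and Foxk2, which are widely expressed, were over the median on every array. Foxj3, known to activate Mef2c in muscle, gave 6389.7 and 8317 in the tumours, against 3784 and 3648 in epidermis (0.97 ± 0.22, adjusted p = 0.0181 by limma), and 976 to 1211 in PDKC1, below every tissue array. Foxj2 gave 1426 and 1225 in the tumours, against 855 and 726 in epidermis, without overlap, and its adjusted p lay just over the threshold (0.74 ± 0.23, adjusted p = 0.0518 by limma). Foxk1, a factor of muscle progenitors, also did not overlap and was not called, at 1478 and 1341 in the tumours, against 875 and 976 in epidermis (0.60 ± 0.21, adjusted p = 0.0801 by limma). Skeletal muscle markers summed to 18771 and 3691 in the tumours, against 773 and 690.3 in epidermis, and their part in these values was not tested. Foxk2 gave 1082 and 1174 in the tumours, against 679.7 and 596 in epidermis (0.81 ± 0.23, adjusted p = 0.0375 by limma).

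**Figure D3:**
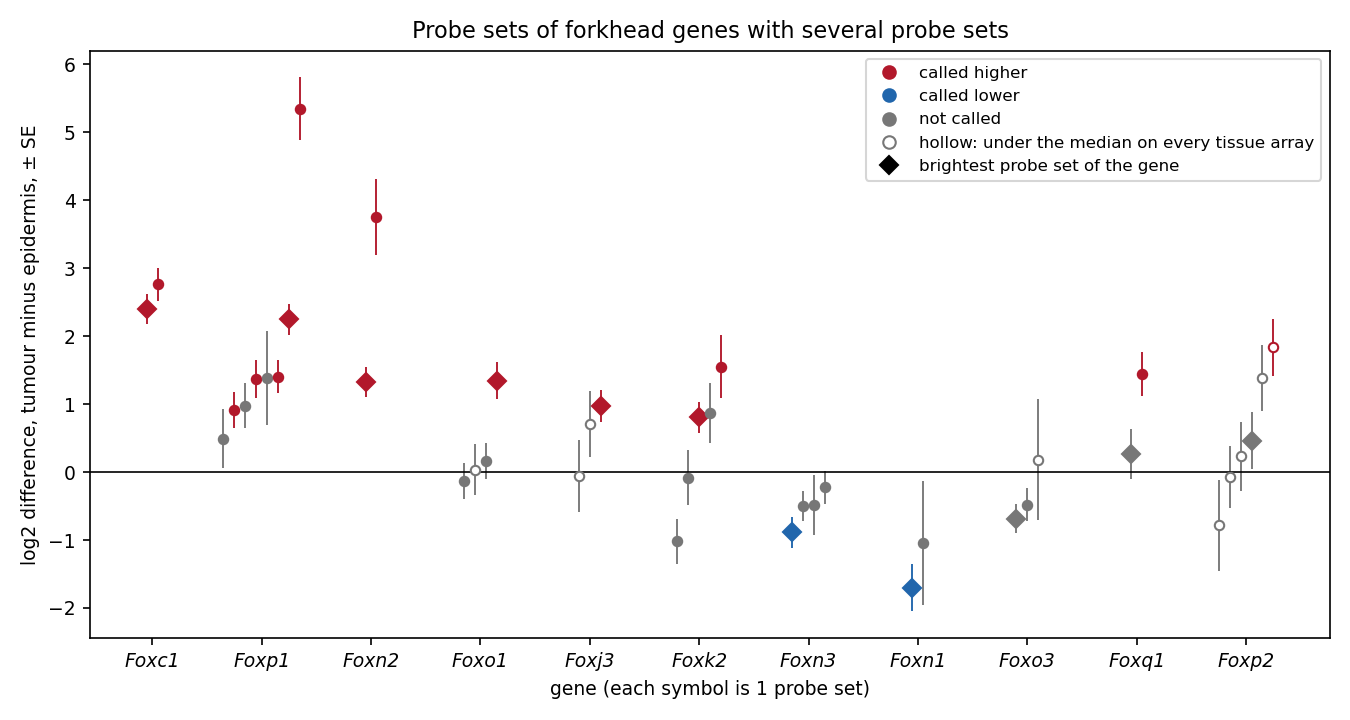
Log2 difference, tumour minus epidermis (± SE, 2 arrays per tissue), of the probe sets of forkhead genes with several probe sets, from the limma fit over all single-gene probe sets; hollow points were under the median on every tissue array. All 8 Foxp1 probe sets lie above 0, up to 5.34, whereas those of Foxk2 run from -1.02 to 1.55.

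The 5 probe sets of Foxk2 did not agree. A second one was called higher (1.55 ± 0.46, adjusted p = 0.0452), with 171 and 302 in the tumours, against 81.2 and 55.4 in epidermis. Of the 2 others designed on the sequence record of the brightest, 1 went the other way, with 192 and 175 in the tumours, against 320.1 and 468 in epidermis (-1.02 ± 0.33, adjusted p = 0.0627), and 1 overlapped (-0.08 ± 0.40, adjusted p = 0.906). The tumours, lowest for the first of these, also had the highest 3′ to 5′ Actb ratios, and the part of RNA quality was not tested. With the mean of its probe sets Foxk2 was not called (0.43, limma adjusted p = 0.261). Of the 12 forkhead genes with at least 2 probe sets over the median in a tissue, 4 had such probe sets of both signs: Foxk2, Foxl2, Foxm1 and Foxo1. Called probe sets of both directions occurred in 0 genes.

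Over all 82 forkhead probe sets 16 (19.5%) were called higher, against 16.6% of all single-gene probe sets, and 2 (2.44%) lower, against 10.7%. These added Foxq1 and Foxp2 to the genes above. The called Foxq1 probe set, whose suffix x marks probes that may cross-hybridize, gave 438 and 361 in the tumours, against 138 and 133 in epidermis (1.45 ± 0.32, adjusted p = 0.0172). The one brightest over all 7 arrays gave 233 and 178 in the tumours, against 181 and 155 in epidermis, with overlap (0.26 ± 0.36, adjusted p = 0.646 by limma). In the tumours the called one was the brighter, but in PDKC1 it gave only 4.6 to 24.5. Which of them stood for Foxq1 thus depended on the PDKC1 arrays. The called probe set of Foxp2, known from brain and lung, was under the median on every array, at 45 and 58.1 in the tumours, against 2.6 and 3.1 in epidermis. Its difference of 1.83 ± 0.42 (adjusted p = 0.0182) was 3.01 with a pseudocount of 4 and 0.79 with 64. The brightest Foxp2 probe set gave 119 and 142 in the tumours, against 95.5 and 85 in epidermis and was not called (0.46 ± 0.40, adjusted p = 0.450 by limma). Foxp4, a relative of both P genes, gave 246 and 232 in the tumours, against 129.6 and 145 in epidermis, without overlap and not called (0.74 ± 0.35, adjusted p = 0.168 by limma).

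Foxm1 overlapped between the tissues, at 269 and 234 in the tumours and 225 and 313 in epidermis (-0.08 ± 0.34, adjusted p = 0.896 by limma). Of 15 listed Foxm1 and cell cycle targets 0 were called higher and 1 lower by limma, against 16.6% and 12.5% of all genes. At an unadjusted p under 0.05 these were 1 and 2 (median -0.30, all genes 0.09). Both tumours lay above both epidermis arrays for 3 targets and below for 4, against 35.8% and 29.8% of all genes, and 8 overlapped. The one called lower was the mitotic kinase gene Plk1, at 173 and 130 in the tumours, against 361 and 882 in epidermis (-1.81 ± 0.46, adjusted p = 0.0277 by limma).

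Factors known from other cell types were mostly dim or overlapped between the tissues. Foxp3 gave 39.8 and 15.3 in the tumours and 45.9 and 39.2 in epidermis. Of 10 T cell markers 0 were called higher and 0 lower by limma (0 at an unadjusted p under 0.05), against 16.6% and 12.5% of all genes. The list median was 0.66, against 0.09 for all genes. Differences ran from -0.43 for Cd8a to 1.08 for Cd3d. Cd3d was dim, at 44.7 and 21 in the tumours, against 8.6 and 4.5 in epidermis, without overlap. Foxj1 gave 29.9 and 6.9 in the tumours and 44.8 and 15.7 in epidermis. Of 15 motile cilia genes downstream of it, 3 were called higher by limma and 0 lower (0 lower at an unadjusted p under 0.05), the higher ones near the 16.6% of all genes. These called genes were the tektin gene Tekt2, at 938 and 953 in the tumours, against 104 and 159 in epidermis (2.73 ± 0.32, adjusted p = 0.00173 by limma), Ccdc39 (1.82 ± 0.47, adjusted p = 0.0296) and Rsph1 (1.74 ± 0.51, adjusted p = 0.0437). Foxh1, a partner of SMAD proteins, gave 10.7 and 67.1 in the tumours and 63.8 and 102 in epidermis, with overlap. Foxl2, known from the ovary, gave 189 and 222 in the tumours, against 163 and 126 in epidermis, without overlap and not called (0.47 ± 0.37, adjusted p = 0.401 by limma). Foxb1, a gene of the developing brain, overlapped, at 15.9 and 25.2 in the tumours and 31.2 and 4.3 in epidermis.

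The 9 calls differed in how far they held. Foxc1 and Foxp1 were called in all 13 alternative fits, with differences from 1.76 to 2.58 and from 1.61 to 2.43. None of the 9 changed direction in these fits. Without either epidermis array, which leaves 1 array in that tissue, the other 7 lost their calls. Far fewer of all genes were called there too, so the loss is not particular to these 7. With centred arrays Foxd1 (0.0847), Foxo1 (0.0791), Foxn2 (0.0589), Foxj3 (0.289) and Foxk2 (0.619) were not called. With quantile normalization Foxd1 (0.0715), Foxk2 (0.100) and Foxn3 (0.0609) were not. With the mean of all probe sets Foxj3 (0.277) and Foxn3 (0.103) were not called, besides the genes named above. Without a variance trend Foxj3 (0.0722), Foxk2 (0.0951), Foxn3 (0.0895) and Foxo1 (0.0503) were not.

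The PDKC1 arrays follow a carcinoma line while Smoothened is inhibited, with 1 array per time and so no replicate check and no test. The Hedgehog targets Gli1 and Ptch1, a receptor gene, are given beside the forkhead genes, with Ptch1 chosen after its values were seen. The 12 Hedgehog pathway genes had median log2 differences from 0 h of 0.08 at 6 h and 0.07 at 10 h. Gli1 was at 842 at 0 h, 193 at 6 h and 189.6 at 10 h, and Ptch1 at 2185 at 0 h, 686 at 6 h and 549.5 at 10 h. For the 13 forkhead genes over the median on every array, the log2 difference from 0 h lay between -0.49 and 0.39 at 6 h and between -0.34 and 0.33 at 10 h.

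In PDKC1, 20 forkhead genes were over the array median on their brightest array. Of these, 0 were at least 2-fold lower at both times and 0 at least 2-fold higher, against 1.01% and 0.916% of all such genes. At 6 h or 10 h, 2 were past 2-fold, against 7.38% of all such genes. Foxb1 gave 52.5 at 0 h, 100.4 at 6 h and 5 at 10 h, with log2 differences from 0 h of 0.76 and -1.71. Foxl2 gave 197 at 0 h, 160.1 at 6 h and 63 at 10 h, with differences of -0.28 and -1.43. The 10 h difference of Foxb1 was -0.76 with a pseudocount of 64, and that of Foxl2 was -0.37 with the mean of its probe sets. The median over the 20 genes was -0.06 at 6 h and -0.06 at 10 h, against -0.01 and 0.01 for all such genes.

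**Figure D4:**
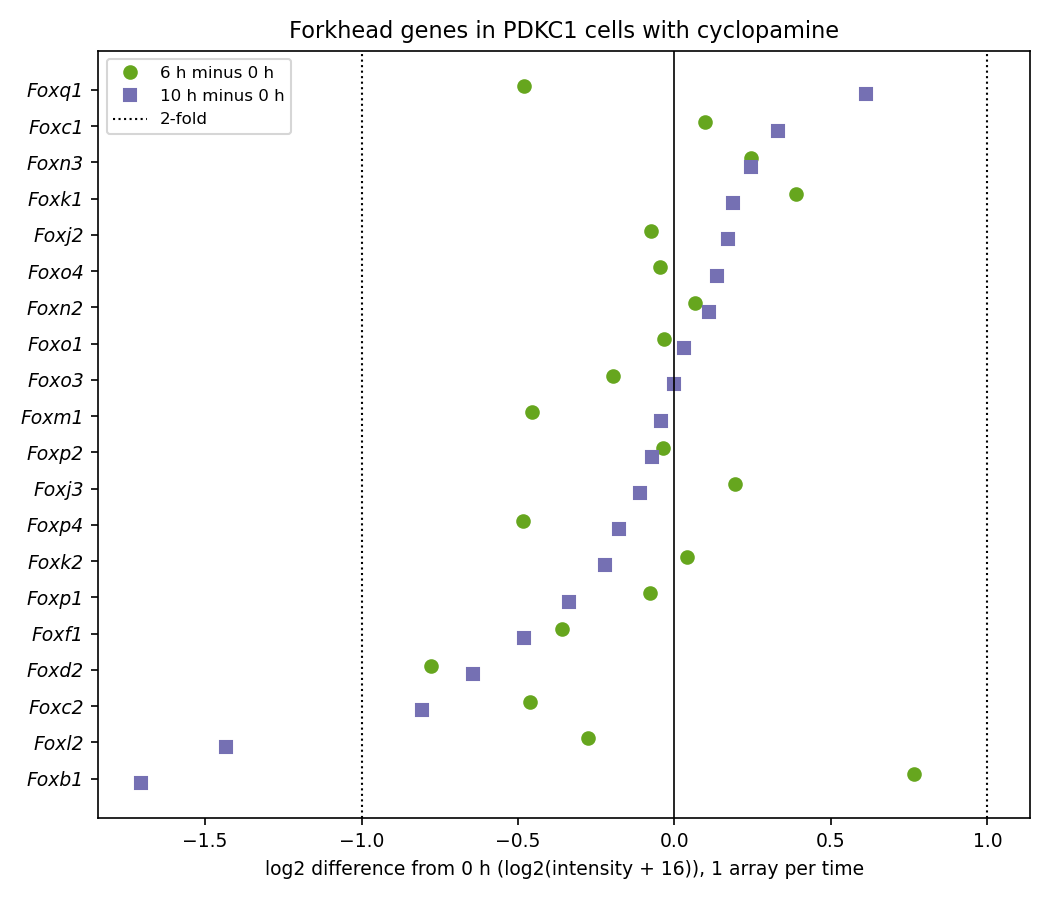
Log2 difference from 0 h, of log2(intensity + 16), at 6 h and 10 h of cyclopamine in PDKC1 for the 20 forkhead genes over the array median there (1 array per time). Foxb1 and Foxl2 lie below the lower 2-fold line at 10 h, at -1.71 and -1.43, and no other gene crosses a 2-fold line.

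Foxf1 was at 89.7 at 0 h, 66.3 at 6 h and 59.8 at 10 h, and Foxc2 at 111 at 0 h, 76.5 at 6 h and 56.7 at 10 h. Foxd2, at 206 at 0 h, 113 at 6 h and 126 at 10 h, was past 1.5-fold lower at both times (-0.78 and -0.65). These 3 were below 0 h at both times and within 2-fold of it. Foxc1, whose levels are given above, and Foxd1, at 58.2 at 0 h, 68.2 at 6 h and 74.4 at 10 h, were above 0 h at both times. Foxm1 gave 224 at 0 h, 159 at 6 h and 217 at 10 h, and the listed Foxm1 and cell cycle targets had medians of -0.06 at 6 h and 0.09 at 10 h.

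Foxo1 gave 414 at 0 h, 404 at 6 h and 423 at 10 h, and Foxo3 2794 at 0 h, 2435 at 6 h and 2792 at 10 h. Neither was far from its 0 h level. Of the 18 FOXO target genes 14 were above 0 h at both times, against 32.0% of all 18193 genes with no filter on level. At 0 h 16 of the 18 were over the array median, so the list and that background differ in level. The list medians were 0.30 and 0.33, and 0 were past 2-fold at both. The stress sensor gene Sesn1 gave 1849.5 at 0 h, 2864 at 6 h and 3884 at 10 h, and the cyclin gene Ccng2 1081 at 0 h, 1685 at 6 h and 2488 at 10 h, both chosen after their values were seen.

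Beside the tissues, PDKC1 held no single place. Each gene was placed by its brightest probe set. Of the 13 genes over the median on all arrays, 7 lay below every tissue array at all 3 times, namely Foxj2, Foxj3, Foxk1, Foxm1, Foxn3, Foxo1 and Foxo4. For Foxm1 the gap was narrow, with 223.9 in PDKC1 at 0 h and 225.2 on epidermis array 1. Another probe set of Foxm1 (216 to 246) and another of Foxj3 (149 to 210) put PDKC1 above every tissue array. The tissues reached at most 109 and 98 there. Further probe sets of Foxn3 and Foxo1 put PDKC1 below the tissues too. Foxc1, Foxk2 and Foxp1 lay above epidermis and below the tumours. For Foxk2, the 2 other probe sets of the same sequence record put PDKC1 above every tissue array, at 710 to 800 and 876.5 to 952. The tissues reached at most 209 and 468 there. A further Foxk2 probe set, at 102 to 133, put PDKC1 between the tissues, and another overlapped. Probe sets of Foxp1 also placed PDKC1 differently, as given above. Foxn2, Foxo3 and Foxp4 overlapped the tissue arrays, with Foxo3 at 2435 to 2794, above both tumours. Per the labels, 2 µg of RNA was used for PDKC1 and 100 ng for the tissues, and the part of that in the levels was not tested. The 3′ to 5′ Actb ratios differed too, at 1.15 to 1.21 in PDKC1 and 2.84 to 93.1 in the tissues, and their part was not tested.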

How the data were processed

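The authors deposited a linear signal intensity per probe set. Per the labels' protocols, labelled cRNA was hybridised to single-channel Affymetrix arrays; the software behind the values is not given in the sources used here. Each array's mean without its lowest and highest 2 percent was 500, and no scaling was added. The number of arrays limits the precision.

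Of 45101 probe sets, 64 controls, 932 naming several genes (2 with a forkhead gene) and 9160 unnamed ones were not used. The probe set with the highest mean stood for its gene. Tissues were compared on log2(intensity + 16), which understates differences of dim genes, by limma 3.58.1 (R 4.3.3; lmFit, eBayes with variance trend, two-sided, Benjamini-Hochberg). Tumour 1 and epidermis 1 did not deviate together (r = -0.00064 over 18193 genes), so replicate numbers were not used as pairs.

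The members and the 6 pathway and 8 marker lists were chosen with earlier results of these data known. Values are given for genes called by gene or probe set, past 2-fold in PDKC1, or over the 75th percentile on all arrays of a group, and for up to 4 called genes per pathway list and 2 markers per list; other forkhead genes are named to complete the family. Tested on simulated data for tumour minus epidermis (18193 genes), limma called 7 of 50 genes changed 2-fold, 43 of 50 changed 4-fold and all 50 at 8-fold and at 16-fold. Only these genes were changed there, whereas 16.6% and 12.5% of all genes were called higher and lower in the data. The adjusted p depends on that share, so the simulated counts do not give the share of true changes found here.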

Additional observations from a re-analysis of the deposited data

How the results depend on the processing

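Of 217 alternative values of the 17 named forkhead genes between the tissues, 172 kept their side of the threshold, 33 lost a call and 12 gained one. In 11 of them the sign turned, all of genes not called either way (Foxb1, Foxk1, Foxl2, Foxp2 and Foxq1), 9 of these after quantile normalization or centring. The counts called higher and lower, 7 and 2, were 5 and 1 after quantile normalization, 2 and 4 with centred arrays, and 16 and 2 over single probe sets. They were 4 and 0 when probe sets were averaged, against 14.7% and 10.4% of all genes. Without a variance trend they were 4 and 1, against 13.2% and 8.65%. Without genes under the tissue median, chosen after seeing the data, they were 8 and 3 of 18. Of all genes in that fit 25.8% were called higher and 21.8% lower. Leaving out 1 array left 1 array in a tissue. Calls in both directions then became more without a tumour array and fewer without an epidermis array, among forkhead genes and among all genes alike. The forkhead median, 0.23, was -0.25 after quantile normalization, -0.41 with centred arrays and 0.41 with a pseudocount of 4. Over the 16 forkhead genes above the 40th percentile it was 0.74, against 0.05 for all genes above it. With 1 array left out the forkhead median was 0.09 to 0.32. With a replicate block the counts were 6 and 2, against 15.9% and 12.2% of all genes called higher and lower. Foxk2 lost its call (limma adjusted p = 0.0667), and the block changed no other call of these 17 genes. In PDKC1, 1 gene (Foxd2) was lower at both times at 1.5-fold, and 3 (Foxb2, Foxd3 and Foxn4) at 2-fold with no filter on level. Those 3 were dim, at 48.1, 55 and 50 at 0 h, under the array median of 78.3. The share of all genes at these 2 settings was not computed, so the counts are no result about the family. The causes were not tested.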

Other observations

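Further marker lists were followed in the tissues, where 16.6% of all genes were called higher and 12.5% lower. Of 12 dermal papilla markers, 6 were higher and 0 lower in the tumours by limma (0 lower at an unadjusted p under 0.05; median log2 difference 1.29). Of 10 melanocyte markers 2 were higher and 1 lower (median 0.13), and of 10 macrophage markers 2 were higher and 1 lower (median -0.37), both near the shares of all genes. Of the keratinocyte markers 0 were higher and 3 lower by limma (0 higher at an unadjusted p under 0.05; median -0.53). Between the tumours, tumour 2 minus tumour 1, Foxj3 differed by 0.38 and Foxk1 by -0.14 on the log2 scale.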
